A study of Mus musculus with 17 samples.

Results

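The tendon genes described here are 6 genes chosen by name: Scx, Mkx, Tnmd, Kera, Dcn and Fmod. Scx and Mkx encode transcription factors of tendon progenitors. Tnmd, Kera, Dcn and Fmod encode a membrane protein of tendon cells and proteoglycans of the tendon matrix. All 6 have a row among the 34682 genes of the expression tables, and all 6 passed the filter on low counts, with 17655 genes tested in all. None of the 6 is restricted to tendon in a whole limb, and Dcn and Fmod in particular are made by other connective tissue cells too.

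Limb tendons form from mesenchymal progenitors that switch on Scx, a basic helix-loop-helix factor that binds DNA at E-boxes, under the influence of fibroblast growth factor and transforming growth factor beta signals. Mkx, a homeobox factor, acts later and is needed in mice for tendons of normal collagen content. As the progenitors mature, they assemble collagen fibrils whose width and spacing are set by small leucine-rich proteoglycans, among them Dcn, Fmod and Kera. Tnmd is a late marker whose expression in mouse tendons depends on Scx. The balance of the regulators against the matrix genes is described here for each library. Whether it tracks how far a limb bud has advanced was not tested, since all libraries analysed are labelled E12.5.

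Poly(A)-enriched RNA was sequenced from frozen limb buds of mouse embryos at stage E12.5 in 5 mutant genotypes and in wild type (WT). The mutants carry structural variants at the locus of Sox9, the master regulator of cartilage, next to the potassium channel genes Kcnj2 and Kcnj16. Dup-C (2 libraries) and Dup-L (2) are duplications there. Dup-L∆Bor (4) joins the Dup-L duplication with ∆Bor, a deletion of the boundary between the Kcnj and Sox9 chromatin domains. ∆Bor alone was sequenced as heterozygote (∆Bor het, 2 libraries) and homozygote (∆Bor hom, 1 library), and WT had 4 libraries. The labels give no zygosity for Dup-C, Dup-L or Dup-L∆Bor, no strain, no limb (forelimb or hindlimb), and no word on whether replicates are separate embryos or pools. The p-values below therefore measure the spread between these libraries, which may be technical. In bulk tissue, fewer cells of a type and less RNA per cell cannot be told apart.

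Library totals ran between 34486256 and 53711742 counts. Pitx1, which specifies hindlimb, separated the libraries in a way that the labels do not record. It was at 0.518 and 0.677 CPM (counts scaled to library size) in Dup-L and at 39.9 to 116 CPM in every library of Dup-C, Dup-L∆Bor and ∆Bor. In WT it was at 59.8 and 70.1 CPM in WT 1 and WT 3 against 1.83 CPM in WT 2 and WT 4. Comparisons with Dup-L are thus also comparisons of Pitx1-low with partly or wholly Pitx1-high libraries. Those of the other mutants with WT set Pitx1-high libraries against WT libraries of both kinds. Fold changes also ran with the GC content of the transcripts, most of all in Dup-L. The column headers hold library numbers in a first range (WT 1, WT 2, Dup-C, Dup-L and ∆Bor) and a second range (WT 3, WT 4 and Dup-L∆Bor), and what these ranges stand for is not labelled.

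Scx, the earliest regulator of the 6, was at 24.0 and 16.4 FPKM (fragments scaled to transcript length and library size, as deposited) in Dup-C and at 16.0 and 13.0 FPKM in Dup-L. It was at 30.7, 29.9, 31.0 and 24.3 FPKM in Dup-L∆Bor R2, R3, R4 and R5, at 13.9 and 28.7 FPKM in ∆Bor het, at 21.1 FPKM in ∆Bor hom, and at 18.4, 28.5, 27.3 and 37.3 FPKM in WT 1, 2, 3 and 4. Both Dup-L libraries lay below every WT and every Dup-L∆Bor library, while ∆Bor het 1 lay among the Dup-L values and ∆Bor het 2 among the WT values. How many of all genes keep groups apart in this way was not counted, here or for the genes below. By group mean the order was Dup-L at 14.5 ± 2.11 (SD, n = 2), Dup-C at 20.2 ± 5.38 (n = 2), ∆Bor hom at 21.1 (n = 1), ∆Bor het at 21.3 ± 10.5 (n = 2), WT at 27.9 ± 7.74 (n = 4) and Dup-L∆Bor at 29.0 ± 3.17 FPKM (n = 4). The ranges of all neighbours in that order overlap, apart from Dup-L and Dup-C.

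Mkx, the other regulator, was at 13.7 and 12.2 FPKM in Dup-C and at 20.9 and 20.1 FPKM in Dup-L. Its level was 14.0, 12.54, 11.1 and 17.7 FPKM in Dup-L∆Bor R2 to R5, 18.9 and 16.8 FPKM in ∆Bor het, 13.8 FPKM in ∆Bor hom and 12.52, 16.3, 15.5 and 18.6 FPKM in WT 1 to 4. The 2 Dup-L libraries were the highest of all 15, the opposite end to where they stood for Scx. By group mean Mkx was lowest in Dup-C at 12.9 ± 1.01 FPKM (SD, n = 2) and highest in Dup-L at 20.5 ± 0.523 FPKM (n = 2). The highest library exceeded the lowest by 1.88 times for Mkx and by 2.87 times for Scx.

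The matrix genes were not equally expressed. Tnmd, the late membrane marker, was the lowest of the 6 with 0.28 to 3.67 FPKM, which stand for 16 to 203 counts per library. It was at 0.75 and 0.28 FPKM in Dup-C, 3.67 and 2.64 FPKM in Dup-L, 0.79, 0.56, 0.61 and 2.83 FPKM in Dup-L∆Bor R2 to R5, 1.22 and 1.43 FPKM in ∆Bor het, 0.51 FPKM in ∆Bor hom and 0.50, 1.53, 1.49 and 3.34 FPKM in WT 1 to 4. Its 13.1-fold range across libraries was the widest of the 6 genes, and WT alone spanned most of it, so that the WT values take in all but 1 of the Dup-L values and all but 1 of the Dup-C values.

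Kera, the proteoglycan keratocan, was at 13.4 and 17.4 FPKM in Dup-C and at 32.6 and 35.5 FPKM in Dup-L. It stood at 13.8, 8.89, 12.2 and 19.8 FPKM in Dup-L∆Bor R2 to R5, 21.3 and 26.0 FPKM in ∆Bor het, 16.3 FPKM in ∆Bor hom and 15.7, 20.6, 17.9 and 19.6 FPKM in WT 1 to 4. Dup-L was the highest group and ∆Bor het the next, with both ∆Bor het libraries above every WT library. Dcn, the proteoglycan decorin, was at 16.1 and 10.7 FPKM in Dup-C, 36.6 and 30.2 FPKM in Dup-L, 16.7, 10.9, 13.0 and 23.1 FPKM in Dup-L∆Bor R2 to R5, 28.5 and 32.2 FPKM in ∆Bor het, 14.1 FPKM in ∆Bor hom and 12.9, 23.0, 21.9 and 22.5 FPKM in WT 1 to 4. Dcn followed Kera in its order of groups at the high end (Dup-L, then ∆Bor het, then WT), and here the Dup-L and ∆Bor het values overlap.

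Fmod, the proteoglycan fibromodulin, varied least, with a 1.68-fold range. It was at 11.7 and 8.62 FPKM in Dup-C, 13.2 and 11.1 FPKM in Dup-L, 11.8, 10.9, 8.74 and 12.4 FPKM in Dup-L∆Bor R2 to R5, 10.1 and 11.9 FPKM in ∆Bor het, 9.69 FPKM in ∆Bor hom and 12.1, 14.5, 13.0 and 14.1 FPKM in WT 1 to 4. WT had the highest mean, 13.4 ± 1.08 FPKM (SD, n = 4), and ∆Bor hom the lowest group value. All libraries of Dup-C, ∆Bor het and ∆Bor hom lay below all 4 WT libraries for Fmod, and the share of all genes that do so was not counted.

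**Figure D1:**
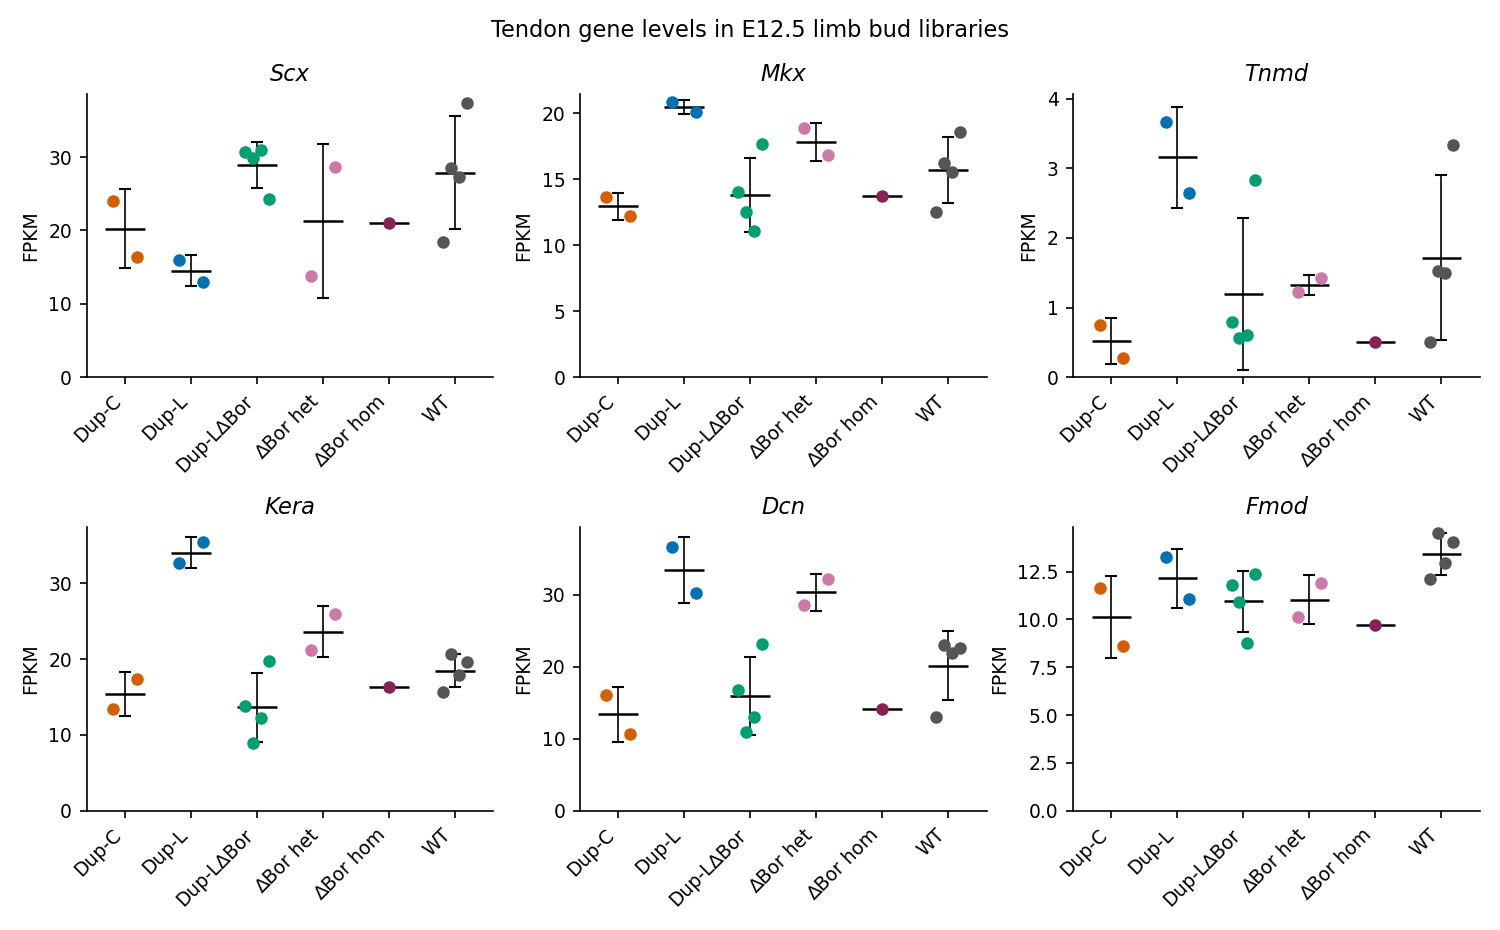
Level of each of the 6 tendon genes (FPKM, y axis from 0) in every library, by genotype (x axis), with WT at the right. Points are libraries and bars are the group mean with its SD. Dup-L is the lowest group for Scx and the highest for Mkx, Kera and, with ∆Bor het, Dcn, whereas Fmod stays between 8.62 and 14.5 FPKM.

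The start regions of matrix genes are shown as background, because Scx binds E-boxes (CANNTG). Whether Scx acts on these genes was not tested. RefSeq promoters of GRCm38.p6, 250 bases before to 50 after the gene start, were at hand for 3 of the 6 genes. Capitals mark the E-boxes found.
Fmod promoter, chr1:134037004-134037303, plus strand: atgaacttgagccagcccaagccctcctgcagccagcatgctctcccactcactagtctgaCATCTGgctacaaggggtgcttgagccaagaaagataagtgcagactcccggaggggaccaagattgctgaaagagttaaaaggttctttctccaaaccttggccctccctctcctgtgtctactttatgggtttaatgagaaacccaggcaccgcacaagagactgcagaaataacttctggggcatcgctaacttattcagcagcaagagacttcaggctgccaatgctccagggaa
Kera promoter, chr10:97606955-97607254, plus strand: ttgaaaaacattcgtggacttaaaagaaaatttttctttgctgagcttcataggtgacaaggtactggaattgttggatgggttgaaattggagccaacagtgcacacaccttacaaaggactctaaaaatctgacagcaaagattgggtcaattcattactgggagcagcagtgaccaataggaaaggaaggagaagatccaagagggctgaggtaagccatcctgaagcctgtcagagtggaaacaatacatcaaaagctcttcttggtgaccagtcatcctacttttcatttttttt
Tnmd promoter, chrX:133850758-133851057, plus strand: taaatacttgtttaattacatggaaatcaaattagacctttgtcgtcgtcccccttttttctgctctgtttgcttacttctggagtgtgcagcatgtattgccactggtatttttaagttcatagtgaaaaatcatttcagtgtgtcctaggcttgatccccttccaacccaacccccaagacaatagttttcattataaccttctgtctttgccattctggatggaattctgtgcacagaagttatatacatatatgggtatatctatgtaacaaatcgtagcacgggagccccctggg
The Fmod window held 1 E-box, CATCTG, and the Kera and Tnmd windows held 0. The search covered both strands, which for the palindromic pattern CANNTG is a single pass, and 72.3% of 32851 mouse promoters of the same length hold at least 1 such match. The narrower pair CAGATG or CATCTG, which are each other's complement, is in 17.2% of them. No match says only that these letters are not in this window. The genes also differ in base composition. Scx transcripts have 61.3% GC, above 97.4% of the genes tested, and Fmod transcripts 53.7%. Mkx has 43.2%, Tnmd 43.0%, Kera 40.7% and Dcn 37.4%, the last above only 1.5% of the genes tested.

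In Dup-L against WT, the progenitor factor Scx was lower and the matrix genes Kera and Dcn were higher. By edgeR's quasi-likelihood test with Benjamini-Hochberg adjustment over all genes tested, 3 of the 6 tendon genes passed the threshold of 0.05, against 32.4% of all genes tested in this comparison. Scx fell by 0.91 in log2 units (SE 0.28, adjusted p = 0.0264). Kera rose 1.89-fold (log2 0.92, SE 0.22, adjusted p = 0.00702), and Dcn rose 1.70-fold (log2 0.77, SE 0.27, adjusted p = 0.0483). The other 3 did not pass. Mkx had a log2 difference of 0.42 (adjusted p = 0.063) although the groups do not overlap, Tnmd one of 0.94 (SE 0.68, adjusted p = 0.319) and Fmod one of -0.11 (adjusted p = 0.598). The median over the 6 genes was 0.59 on the log2 scale, beside 0.00 over all genes tested.

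Each of the 3 calls could be lost by leaving out 1 library, which also moved the share of all genes past the threshold. That share was 15.6% without Dup-L 1 and 6.37% without Dup-L 2, and lay between 26.9% and 33.8% when 1 of the WT libraries was left out. The log2 differences themselves ranged from -1.07 to -0.73 for Scx, 0.84 to 0.99 for Kera and 0.60 to 0.90 for Dcn. Kera stayed past the threshold when any one of the 6 libraries but Dup-L 2 was left out (adjusted p = 0.0763 without Dup-L 2). Scx kept its call only without WT 1 (adjusted p = 0.0068) or WT 2 (0.043), and Dcn only without WT 2 (0.0483). Mkx passed once WT 4 was left out (log2 0.51, adjusted p = 0.0288). Within the first range of library numbers, where Dup-L and WT 1 and 2 all lie, the log2 differences were 0.92 for Kera (adjusted p = 0.0183), 0.91 for Dcn (0.0447), 0.52 for Mkx (0.0288) and -0.68 for Scx (0.200), with 17.6% of all genes past the threshold. With the range as a term in the fit of all libraries, Mkx and Kera passed and Scx and Dcn did not (23.7% of all genes).

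Dup-L∆Bor and Dup-L differ by the added boundary deletion. Between them, the differences of Scx, Mkx, Tnmd, Kera and Dcn had the opposite sign to those in Dup-L against WT, and that of Fmod the same sign. Here 4 of the 6 passed, against 43.6% of all genes tested. Scx rose 2.02-fold (log2 1.01, SE 0.28, adjusted p = 0.0114). Kera fell by 1.31 in log2 units (SE 0.22, adjusted p = 4.48e-04), Dcn fell by 1.06 (SE 0.27, adjusted p = 0.0076) and Mkx fell by 0.55 (SE 0.16, adjusted p = 0.0125). Tnmd had a log2 difference of -1.39 (SE 0.68, adjusted p = 0.117) and Fmod one of -0.14 (adjusted p = 0.469). The median over the 6 was -0.80, beside 0.01 over all genes tested. Since this comparison and that of Dup-L with WT share the same 2 Dup-L libraries, opposite signs in the 2 are partly built in. Both Dup-L libraries also carry numbers of the first range and are low in Pitx1, while all 4 Dup-L∆Bor libraries carry numbers of the second range and are high in it, so that between these 6 libraries genotype, number range and Pitx1 cannot be told apart. With the range as a term, which draws on WT libraries of both ranges, Kera (log2 -1.36, adjusted p = 0.0361) and Mkx (-0.80, adjusted p = 0.0449) passed, and Scx (0.54, adjusted p = 0.37) and Dcn (-1.37, adjusted p = 0.0611) did not (13% of all genes).

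The call for Kera held whichever of the 6 libraries was left out. Scx lost its call without Dup-L 2 (adjusted p = 0.108), Dcn without Dup-L 1 (0.0702), and Mkx without either Dup-L library (0.0771 and 0.0597). The share of all genes past the threshold was 28.1% without Dup-L 1 and 25.2% without Dup-L 2. Without Dup-L∆Bor R5, the library of that group highest in Tnmd, the Tnmd difference became -2.24 on the log2 scale and passed (adjusted p = 0.0061). R5 was the highest of the 4 Dup-L∆Bor libraries for 5 of the 6 genes and the lowest for Scx, and with 40.5 CPM it had the least Pitx1 of the group.

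In Dup-C against Dup-L, 3 of the 6 genes passed, against 15.1% of all genes tested. Mkx fell by 0.66 in log2 units (SE 0.19, adjusted p = 0.0333), Kera fell by 1.15 (SE 0.27, adjusted p = 0.017) and Dcn fell by 1.32 (SE 0.33, adjusted p = 0.0233). Tnmd had the widest difference, -2.57 with an SE of 0.88, and did not pass in this fit (adjusted p = 0.0665). It did pass in 8 of the 15 alternatives that left out no single library in turn. Among them were DESeq2 (adjusted p = 0.0279, 14.7% of all genes past the threshold), the range as a term (0.04996, 20.7%), the first range alone (0.0212, 15.4%) and the 4 libraries of the 2 groups alone (0.00257, 34.1%). Scx had a difference of 0.48 (adjusted p = 0.31) and Fmod one of -0.26 (adjusted p = 0.294). The median over the 6 was -0.90, beside -0.04 over all genes tested. Leaving out any one of the 4 libraries ended all 3 calls. In each case 0 genes of all tested passed edgeR's test, with 3577 to 4395 at an unadjusted p under 0.05.

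The remaining mutants were not told apart from WT by any tendon gene after adjustment. In Dup-C against WT 0 of 6 passed (0.00566% of all genes tested, which is 1 gene), with Fmod at an unadjusted p under 0.05. In Dup-L∆Bor against WT 0 of 6 passed (3.85% of all genes), and 0 of 6 had an unadjusted p under 0.05. In ∆Bor het against WT 0 of 6 passed (4.03% of all genes), with Dcn alone at an unadjusted p under 0.05. In ∆Bor hom against WT, which rests on 1 mutant library assumed to vary like the other groups, 0 of 6 passed (1.27% of all genes), and 0 of 6 had an unadjusted p under 0.05. DESeq2 likewise called 0 of 6 in each of the 4, against 0.0942% of all genes in Dup-C (where it gave none of the 6 an adjusted p), 6.78% in Dup-L∆Bor, 8.86% in ∆Bor het and 8.99% in ∆Bor hom. Its unadjusted p was under 0.05 for 3, 2, 1 and 1 tendon genes in that order of genotypes. With limma on log2(FPKM + 1), 0 of 6 passed too, against 0.00682%, 4.44%, 3.95% and 0.287% of all genes, and 1, 2, 0 and 1 tendon genes had an unadjusted p under 0.05.

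The differences in these 4 comparisons were mostly small. In Dup-C the log2 differences were -1.64 for Tnmd (SE 0.80), -0.55 for Dcn (SE 0.29), -0.43 for Scx (SE 0.27), -0.37 for Fmod (SE 0.15), -0.25 for Mkx (SE 0.17) and -0.23 for Kera (SE 0.23), all below 0, with a median of -0.40 beside -0.01 over all genes. In ∆Bor hom they were also all below 0, between -1.64 for Tnmd (SE 1.10) and -0.11 for Kera (SE 0.30). In ∆Bor het, Dcn at 0.61 (SE 0.28), Kera at 0.37 (SE 0.22) and Mkx at 0.20 (SE 0.16) were above 0, and Scx at -0.38 (SE 0.27), Tnmd at -0.33 (SE 0.73) and Fmod at -0.27 (SE 0.15) below it. GC content and length accounted for 33.1% of the variance of fold changes in ∆Bor het and 26.1% in ∆Bor hom. With offsets for both in the fit, ∆Bor het had Dcn at 0.22, Kera at 0.08, Mkx at -0.015, Scx at -0.09, Tnmd at -0.57 and Fmod at -0.13. In Dup-L∆Bor, Scx was at 0.10 (SE 0.22) and the other 5 lay between -0.46 for Tnmd (SE 0.59) and -0.14 for Mkx (SE 0.14). These 4 comparisons share the 4 WT libraries. They also set mutant libraries that are all high in Pitx1 against WT libraries of both kinds. With Pitx1 as a covariate, the median over the 6 genes was -0.27 in Dup-C, -0.04 in Dup-L∆Bor, 0.43 in ∆Bor het and -0.19 in ∆Bor hom. In the same order it was -0.40, -0.27, -0.03 and -0.37 in the fit without this covariate. Without WT 1, the WT library lowest in all 6 genes, the share of all genes past the threshold was 9.32% in Dup-C and 15.6% in ∆Bor hom, and still 0 of the 6 tendon genes passed in either.

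**Figure D2:**
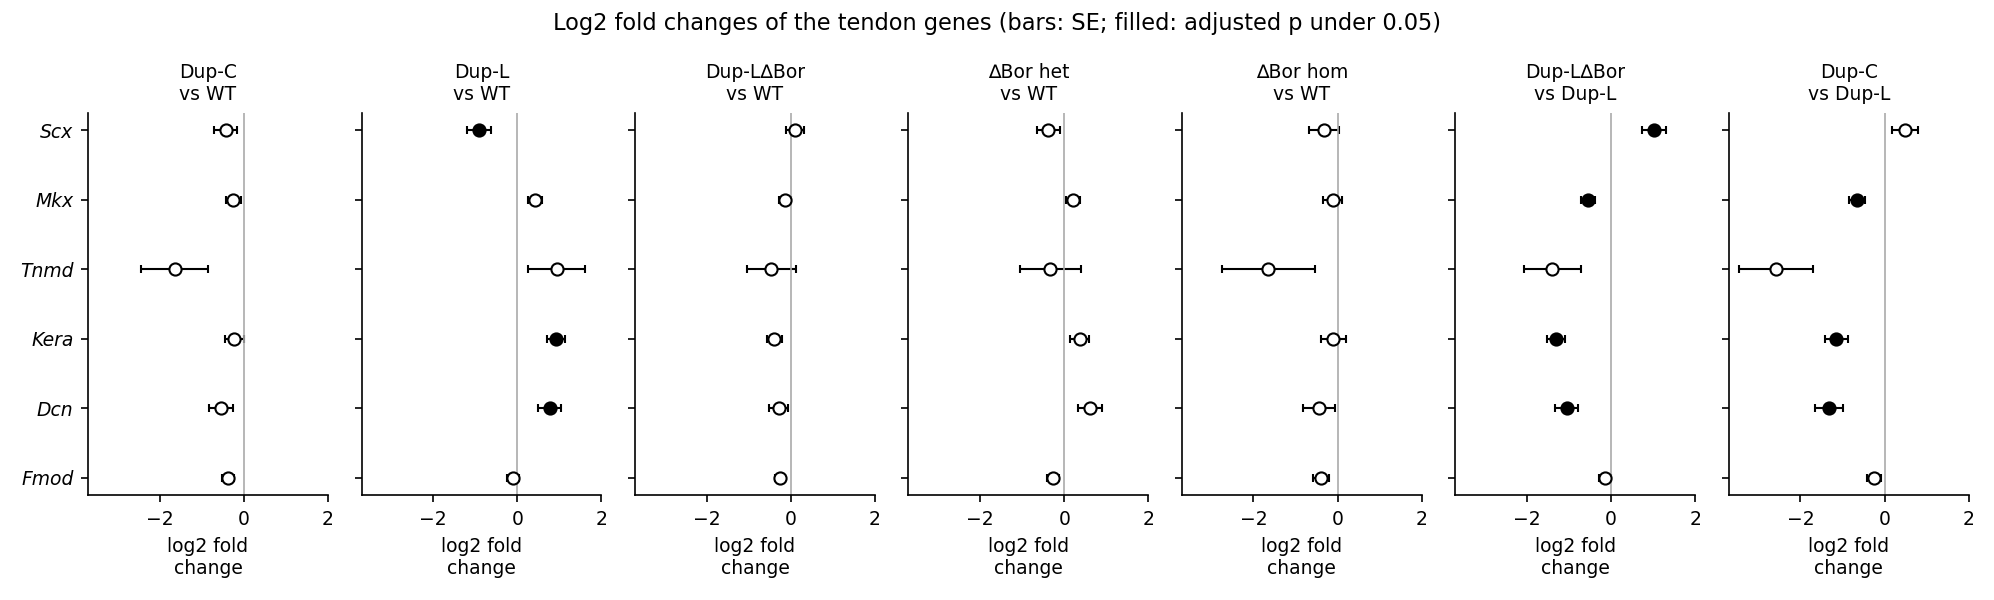
Log2 fold change (x axis) of the 6 tendon genes in the 7 comparisons, with bars of 1 standard error of edgeR's fit. Filled points passed an adjusted p of 0.05. The filled points lie in the 3 comparisons that include Dup-L, with Scx on one side of 0 and Kera and Dcn on the other in both Dup-L against WT and Dup-L∆Bor against Dup-L.

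To set regulators against matrix in each library, the mean log2(FPKM + 1) of Tnmd, Kera, Dcn and Fmod was subtracted from that of Scx and Mkx. The difference averaged 1.12 ± 0.05 (SD, n = 2) in Dup-C, 0.19 ± 0.02 (n = 2) in Dup-L, 1.27 ± 0.35 (n = 4) in Dup-L∆Bor, 0.72 ± 0.16 (n = 2) in ∆Bor het, 1.16 (n = 1) in ∆Bor hom and 0.97 ± 0.05 (n = 4) in WT. Both Dup-L libraries, at 0.18 and 0.20, lay below all 13 others, the nearest of which was ∆Bor het 1 at 0.61. The gap came with high matrix genes more than with low regulators. The matrix mean was 4.09 and 3.90 in Dup-L, above the other 13 libraries, while the mean of Scx and Mkx, 4.27 and 4.10, lay inside the range of 4.02 to 4.78 in WT. These values describe the 6 chosen genes, carry no test and were not adjusted for GC content, Pitx1 or library number range.

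The 2 regulators did not act as a unit. The Dup-L minus WT difference of -0.78 became -1.4 with Scx alone on the progenitor side and -0.17 with Mkx alone. In Dup-L, Scx was at 0.767 and 0.647 times the FPKM of Mkx, against 1.47 to 2.01 times in the 4 WT libraries. Among the 15 libraries, Scx was below Mkx in Dup-L 1, Dup-L 2 and ∆Bor het 1 only.

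Among the WT libraries, all 6 genes were lowest in WT 1, so regulators and matrix were low together there. WT 2 and WT 4 were low in Pitx1 and WT 1 and WT 3 high. The progenitor-minus-matrix difference was 0.92 and 1.04 in WT 2 and WT 4 and 0.98 and 0.97 in WT 1 and WT 3. Tnmd was at 1.53 and 3.34 FPKM in WT 2 and WT 4, and at 0.50 and 1.49 FPKM in WT 1 and WT 3. WT 1 and WT 2 share the first range of library numbers, and WT 3 and WT 4 the second. Within each range, the WT library low in Pitx1 was above the one high in Pitx1 for all 6 genes. The part of Pitx1 in these differences was not tested.

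**Figure D3:**
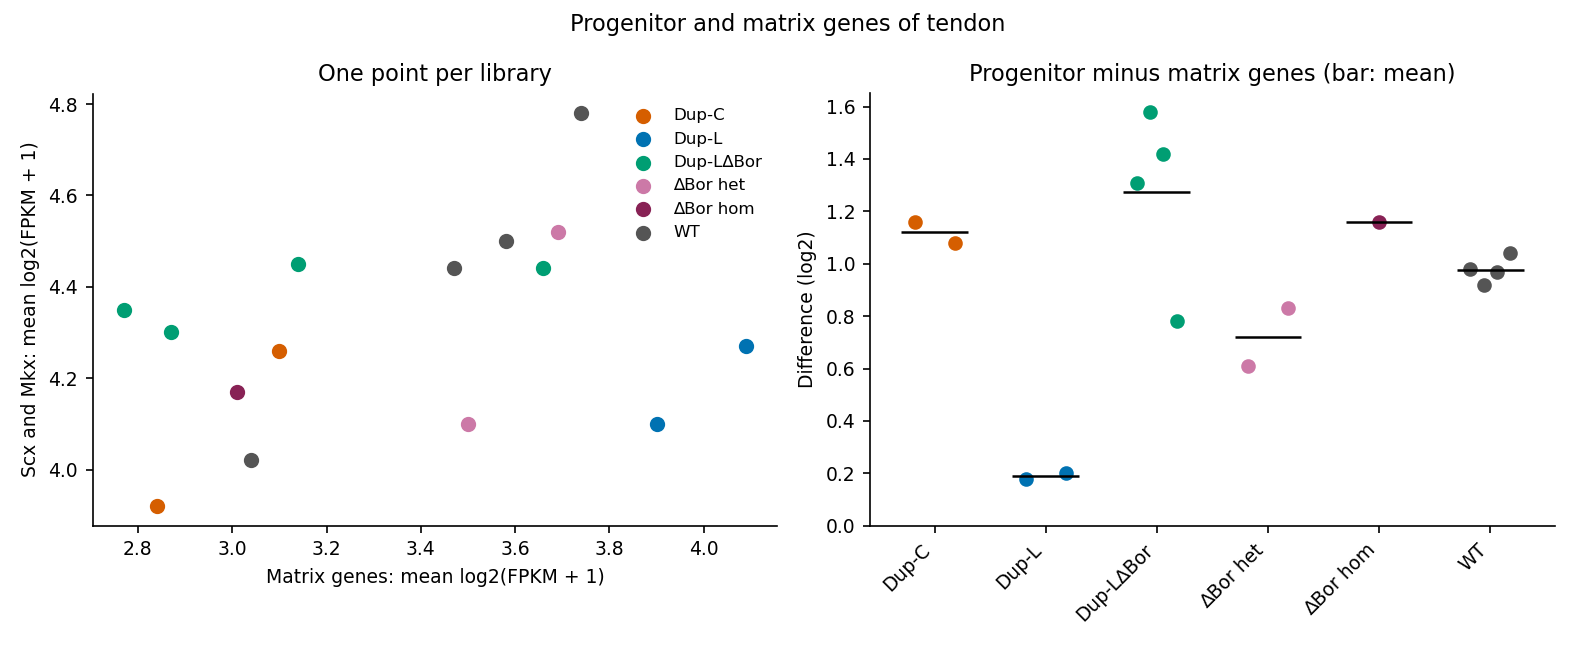
Left, mean log2(FPKM + 1) of Scx and Mkx (y axis) against that of Tnmd, Kera, Dcn and Fmod (x axis), with 1 point per library. Right, their difference by genotype, with bars at the group means. The 2 Dup-L libraries lie at 0.18 and 0.20 and have the highest matrix means, and the 4 WT libraries lie between 0.92 and 1.04.

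The Dup-L results are set here beside the GC content of the genes and Pitx1, and the library number range is given above. The part of each in the Dup-L results was not tested. In Dup-L against WT, GC content and length accounted for 56.1% of the variance of fold changes over 12660 genes, and the median log2 fold change was 0.45 in the lowest of 5 equal bins of GC content and -0.53 in the highest. The share was 42.7% for Dup-L∆Bor against Dup-L, with medians of -0.54 in the lowest and 0.56 in the highest bin. Kera, Dcn, Mkx and Tnmd belong to the lowest bin and Scx to the highest. With offsets for GC content and length, 0 of 6 genes passed in Dup-L against WT (5.22% of all genes), 0 of 6 had an unadjusted p under 0.05, and the log2 differences were -0.27 for Scx, 0.41 for Kera and 0.12 for Dcn. The same offsets left Kera at -0.69 (adjusted p = 0.0327) and Fmod at -0.39 (adjusted p = 0.0452) past the threshold in Dup-L∆Bor against Dup-L (27.8% of all genes), with Scx at 0.35. For Dup-C they left 0 of 6 (1.72% of all genes), with 5 of 6 at an unadjusted p under 0.05.

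With log2 Pitx1 as a covariate, 0 of 6 passed in each of the 3 comparisons with Dup-L. In Dup-L against WT, Scx then had a log2 difference of -1.12 (adjusted p = 0.0913) and Kera one of 0.69 (adjusted p = 0.172). Without the covariate these differences were -0.91 and 0.92. Both genes had an unadjusted p under 0.05 with the covariate, while 0% of all genes passed. In Dup-C against Dup-L 0% of all genes passed as well, and 0 of 6 had an unadjusted p under 0.05. In Dup-L∆Bor against Dup-L, Scx was at 1.38 (adjusted p = 0.0889) and Kera at -0.95 (adjusted p = 0.126), again the 2 genes with an unadjusted p under 0.05, with 7.87% of all genes past the threshold. Against Dup-L∆Bor and Dup-C, whose libraries are all high in Pitx1, genotype and Pitx1 cannot be told apart. WT holds libraries of both kinds. Scx was at 16.0 and 13.0 FPKM in Dup-L, against 28.5 and 37.3 FPKM in WT 2 and WT 4, which are low in Pitx1, and 18.4 and 27.3 FPKM in WT 1 and WT 3, which are high. Kera was at 32.6 and 35.5 FPKM in Dup-L, against 20.6 and 19.6 FPKM in WT 2 and WT 4 and 15.7 and 17.9 FPKM in WT 1 and WT 3. Dup-L was not tested against the Pitx1-low WT libraries alone.

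**Figure D4:**
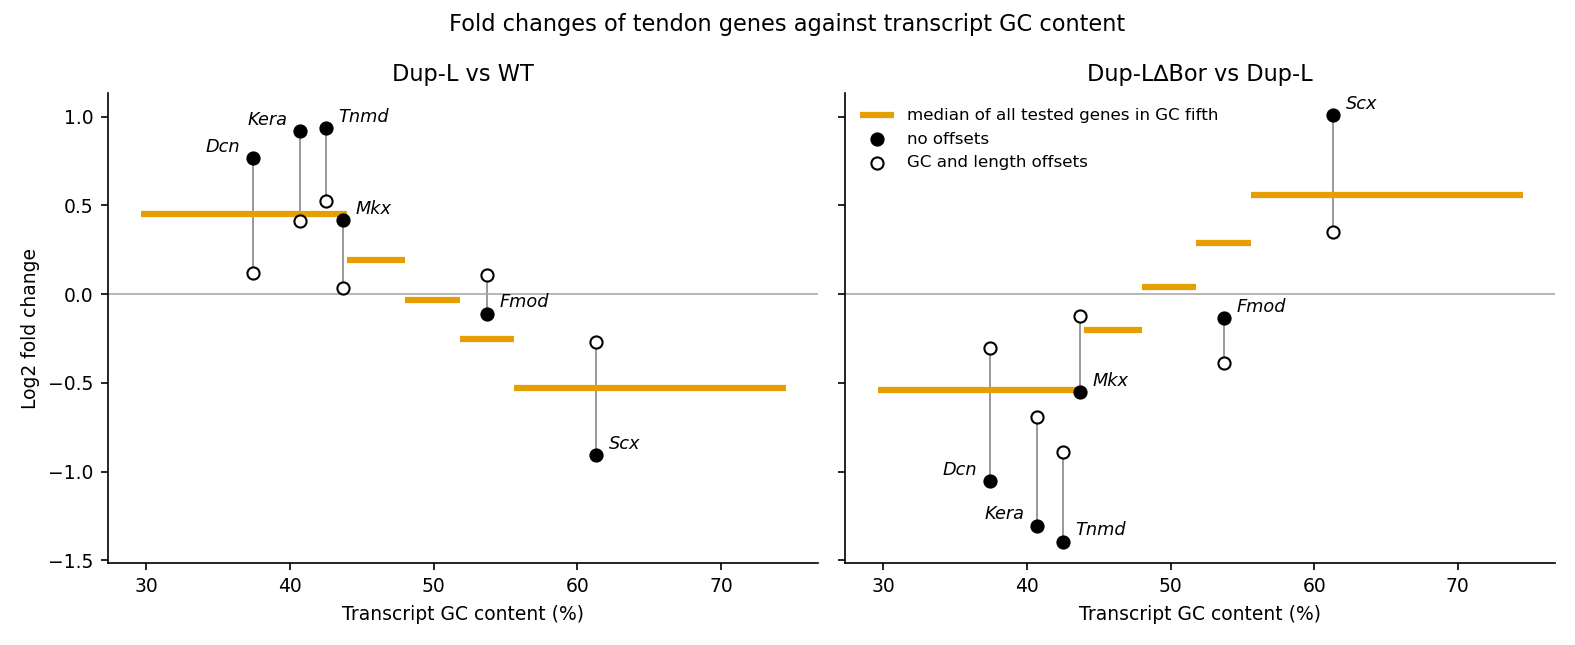
Log2 fold change (y axis) of the 6 tendon genes against the GC content of their transcripts (x axis, percent), without offsets (filled) and with offsets for GC content and length (open). Orange lines are medians of all tested genes in each of 5 bins of GC content, and Mkx and Tnmd are drawn slightly apart along the x axis. Offsets bring Scx in Dup-L against WT to -0.27 and Dcn to 0.12.

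Other genes of tendon matrix gave a mixed picture. Of 11 further small leucine-rich proteoglycans tested, 1 rose in Dup-L against WT (beside 32.4% of all genes called), Lum (lumican, a fibril-spacing relative of Kera), with a log2 difference of 0.73 (SE 0.18, adjusted p = 0.00917). Lum was at 66.3 and 57.4 FPKM in Dup-L, against 28.9, 36.9, 48.1 and 39.2 FPKM in WT 1 to 4. The genes Dcn, Lum, Kera and Epyc follow one another without another protein-coding gene between them on mouse chromosome 10, and Epyc had only 3 to 39 counts per library. Against the same Dup-L libraries, 4 of the 11 fell in Dup-L∆Bor and 0 rose (beside 43.6% of all genes called). Both counts are a smaller share than that of all genes. They were Aspn (log2 -2.80), Ogn (-1.91), Lum (-1.04) and Bgn (-0.56), and the median of the 11 was -0.56 beside 0.01 over all genes. In Dup-C against Dup-L, these 4 of 11 were again the ones past the threshold, beside 15.1% of all genes called. Aspn was at -2.69, Ogn at -2.37, Lum at -1.05 and Bgn at -0.81. In Dup-L∆Bor against WT 1 of 11 fell, Aspn (log2 -1.67, adjusted p = 0.0455), beside 3.85% of all genes called. With GC and length offsets, 0 of 11 passed edgeR's test in Dup-L against WT (5.22% of all genes), with 0 at an unadjusted p under 0.05. Bgn and Aspn, 2 of 11, passed when Dup-L∆Bor was set against Dup-L (27.8% of all genes). For Dup-C against Dup-L 0 of 11 passed (1.72% of all genes), with 7 at an unadjusted p under 0.05.

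Of 20 collagens and other matrix genes, 4 fell in Dup-L against WT and 0 rose, a smaller share than the 32.4% of all genes called there. Col1a1, the main collagen chain of tendon and bone, fell by 1.01 in log2 units (SE 0.29, adjusted p = 0.0167), with 51.9 and 40.5 FPKM in Dup-L against 71.8, 101, 115 and 92.2 FPKM in WT 1 to 4. Col1a2, Col6a2 and Fbn2, which encode 2 more collagen chains and a microfibril protein, fell by 0.44, 0.80 and 0.43. When Dup-L∆Bor was set against Dup-L, Col14a1 (log2 -1.16), Postn (-1.14), Lox (-0.78) and Col5a2 (-0.51) fell, 4 of 20, and 0 rose (beside 43.6% of all genes). The median of the 20 was -0.29 in Dup-L against WT and 0.06 in Dup-L∆Bor against Dup-L. Under the GC and length offsets 0 of 20 passed in Dup-L against WT (5.22% of all genes), with 0 at an unadjusted p under 0.05. In Dup-L∆Bor against Dup-L 3 of 20 passed, Col5a1, Col5a2 and Col14a1 (27.8% of all genes).

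The lists of matrix genes and proteoglycans also had medians below 0 in Dup-C and ∆Bor hom, without a call. Of the 20 matrix genes, 0 passed edgeR's test in Dup-C against WT and 17 had an unadjusted p under 0.05, with a median log2 difference of -0.80 beside -0.01 over all genes. In ∆Bor hom against WT 0 of 20 passed and 15 had an unadjusted p under 0.05, with a median of -0.99 beside -0.03 over all genes. For the 11 proteoglycans the medians were -0.92 in Dup-C and -0.80 in ∆Bor hom, with 0 past the threshold in both and 7 and 2 at an unadjusted p under 0.05. Pitx1 was high in the libraries of both mutants, and WT held libraries of both kinds. With Pitx1 as a covariate, the medians in Dup-C and ∆Bor hom were -0.59 and -0.61 for the matrix genes and -0.33 and -0.48 for the proteoglycans. In Dup-C, 8 of the 20 matrix genes and 1 of the 11 proteoglycans then had an unadjusted p under 0.05. The part of Pitx1 in these differences was not tested. Some of the other lists lay below 0 too, and some did not. The medians in Dup-C and ∆Bor hom against WT were -0.45 and -1.06 for skeletal muscle, -0.61 and -0.66 for joint genes and -0.42 and -0.21 for cartilage, with 0 and 5 of 11 muscle genes, 2 and 1 of 6 joint genes and 3 and 0 of 13 cartilage genes at an unadjusted p under 0.05. In the same order, the medians were 0.01 and -0.0 for dermal and loose mesenchyme and 0.27 and 0.22 for distal progenitor mesenchyme. They were 0.38 and 0.88 for the embryonic globins and 0.78 and 0.77 for the limb type genes Pitx1, Tbx4, Tbx5 and Isl1. For the regulators and inducing signals of tendon they were -0.17 and -0.11. Of all 17655 genes tested, 2933 in Dup-C and 4697 in ∆Bor hom had an unadjusted p under 0.05.

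Among 17 regulators and inducing signals of tendon, 2 rose and 3 fell in Dup-L against WT, a share near that of all genes called (32.4%). Tgfb2, a transforming growth factor that induces tendon progenitors in mice, rose by 0.57 in log2 units (SE 0.19, adjusted p = 0.0371) and its receptor Tgfbr1 by 0.37. Fgf8, a growth factor of the apical ridge, fell by 1.55, Eya2, a transcription cofactor, by 0.65, and Smad3, which relays transforming growth factor signals, by 0.29. Tgfb2 fell by 0.92 in Dup-L∆Bor against Dup-L (adjusted p = 0.00164), while Fgf8 (log2 1.72), Eya2 (0.67) and Nfatc4 (0.42) rose, 4 of 17 beside 43.6% of all genes. In Dup-L∆Bor against WT 1 of 17 fell, Etv4 (log2 -0.69, adjusted p = 0.0381), beside 3.85% of all genes called. With the offsets 0 of 17 passed in Dup-L against WT (5.22% of all genes), with 2 at an unadjusted p under 0.05. In Dup-L∆Bor against Dup-L Eya1 then rose and Etv4, Tgfb2 and Tgfb3 fell (27.8% of all genes).

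Markers of other cells are set beside the 32.4% of all genes that passed in Dup-L against WT. A list of 9 genes stood for dermal and loose mesenchyme, and whether they are restricted to such cells was not tested. Of these 9, Twist2 (log2 0.37, adjusted p = 0.024) and Prrx1 (0.48, adjusted p = 0.0101) rose against WT and 0 fell. The 9 genes summed to 2610 and 2681 CPM in Dup-L against 2210 to 2366 CPM in WT. Of 13 cartilage genes tested, Col2a1 fell by 0.79 (adjusted p = 0.0327) in Dup-L against WT, and the summed level of 1494 and 1529 CPM in Dup-L lay within the WT range of 1295 to 2312 CPM. In neither list was a gene at 0 in any library. With GC and length offsets, which left 5.22% of all genes called, Twist2 rose (log2 0.50, adjusted p = 0.0285) and Tcf4 fell (-0.31, adjusted p = 0.0456). Prrx1 (0.20, adjusted p = 0.253) and Col2a1 (0.01, adjusted p = 0.974) did not pass with them. Of 11 skeletal muscle genes and 6 joint genes tested, 0 passed edgeR's test in any of the 7 comparisons. In Dup-L against WT, 1 muscle gene and 0 joint genes had an unadjusted p under 0.05, and the joint genes summed to 202 and 221 CPM in Dup-L against 143 to 250 CPM in WT. Of 8 genes of distal progenitor mesenchyme, Msx1 and Lhx2 fell by 1.73 and 0.69 and Hoxd13 rose by 0.45 in Dup-L against WT. With the offsets Msx1 alone of the 8 passed (log2 -1.30), beside 5.22% of all genes. Of the globins taken as stage markers, the 4 adult-type genes had 0 to 4 counts per library and could not be tested. Hba-a2, Hbb-b1 and Hbb-b2 were at 0 in every library. Whether the counting could detect these genes is not labelled, so the values do not show that they are silent. Of 3 embryonic globins, Hba-x fell by 1.27 in Dup-L against WT (adjusted p = 0.00837; log2 -0.96 and adjusted p = 0.0619 with the offsets). It rose by 1.42 in Dup-L∆Bor against Dup-L (43.6% of all genes called) and by 1.65 in Dup-C against Dup-L (15.1%). With the offsets Hba-x passed in both (log2 1.10 and 1.36), beside 27.8% and 1.72% of all genes. Hbb-y and Hbb-bh1 passed in none of the 7 comparisons. The part of stage and of these cells in the tendon gene results was not tested.

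The genes whose log2 CPM ran most closely with each tendon gene over the 15 libraries, given as a description, differed from gene to gene. They were Zfp575 (Pearson r = 0.972), Npepl1 (0.961) and Wnt11 (0.96) for Scx, and Sema3c (0.964), Net1 (0.962) and Fam19a2 (0.956) for Mkx. For Tnmd they were Rdh10 (0.981), Colec12 (0.967) and Matn2 (0.966), for Kera Reps2 (0.932), Nexn (0.92) and Vcam1 (0.917), and for Dcn Nfib (0.959), Necab1 (0.957) and Sema3c (0.951). For Fmod they were Pmepa1 (0.935), Fcgrt (0.917) and Jdp2 (0.903). Sema3c was the only gene named for 2 of the 6, Mkx and Dcn. The 3 nearest genes had 56.5 to 59.0% GC for Scx, 42.7 to 47.2% for Mkx, 43.1 to 50.5% for Tnmd, 39.6 to 42.0% for Kera, 39.5 to 43.3% for Dcn and 54.5 to 56.8% for Fmod. The libraries share their genotype groups, and the search covered 13922 genes.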

How the data were processed

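RNA of 15 limb bud libraries of stage E12.5 was analysed here. The other 2 labelled samples, from fingertips of stage E17.5, were not analysed here. The deposited count table holds whole-number counts per gene (34682 genes), and the deposited FPKM table was made by the authors from the same genes. FPKM equalled the count divided by a length and by 1 factor per library. The submitters' processing notes name STAR, DESeq2, bedtools 2.17.0 and mm9. Neither the labels nor the headers say which software and gene models gave the counts, or whether strand was used. Dup-L∆Bor columns carry replicate names R2 to R5 and were matched to the group only. R4 and R5 carry the same library number in their headers.

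Counts were fitted with edgeR 4.0.16 under R 4.3.3 (TMM, filterByExpr, a two-sided quasi-likelihood F-test with robust dispersions). A single model of 15 libraries in 6 groups, with no block, gave p-values for 17655 genes, and Benjamini-Hochberg adjustment ran over all of them. All adjusted p-values of the text come from such edgeR fits unless DESeq2 1.42.0 or limma 3.58.1 is named. A gene "rose" or "fell" only where its adjusted p was under 0.05. Standard errors come from the F-statistic. GC content and length were taken by symbol from the longest GENCODE vM21 transcript (86.4% of the genes tested) and entered as loess offsets in some alternatives. List genes named are those past the threshold in the comparison described, or needed to describe the list, except 1 that is not reported here. The nearest genes were the 3 tested genes of mean CPM 1 or more with the highest Pearson r (prior count 2). The fitting was tested on simulated data. The 6 genes, the gene lists and the tests were chosen with earlier results of these data known, and 3 alternatives were added after seeing the data.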

Additional observations from a re-analysis of the deposited data

Results flagged for a closer look

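In groups of 4 libraries, 3 of 14 sets of values held a library far from the other 3 by Dixon's 95% limit, which chance passes in about 1 in 20 such sets. Scx in Dup-L∆Bor R5 was at 32.0 CPM, below the 39.2 to 40.5 CPM of the other 3 Dup-L∆Bor libraries. Tnmd in the same library was at 4.35 CPM, above the 0.854 to 1.21 CPM of the others. Dcn in WT 1 was at 30.5 CPM, below the 51.7 to 53.0 CPM of the other WT libraries. R5 also had the least Pitx1 of its group (40.5 CPM, against 59.5 to 73.9 CPM in the others), and WT 1 the lowest value of its group for all 6 genes. The parts of limb type and stage in these values were not tested.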

How the results depend on the processing

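Of the 42 fold changes (6 genes in 7 comparisons), each recomputed under every alternative run for its comparison, 694 values kept their direction and side of the threshold, 78 lost a call, 15 gained one and 41 changed sign. The replicate block could be fitted for 4 of the comparisons, and the fit within a range of library numbers for all but Dup-L∆Bor against Dup-L. Settings that did not move a count of tendon genes past the threshold by over 1.5 times were DESeq2, DESeq2's size factors, no filter on low counts, the libraries of the 2 groups alone, limma with a filter, and the fit within a range of library numbers. Counts over all genes did move. DESeq2 called 23 genes in Dup-C (edgeR 1), 1656 in Dup-L∆Bor (679), 2162 in ∆Bor het (712) and 2196 in ∆Bor hom (225), each against WT. The 2 groups alone gave 114 in Dup-L∆Bor, 9 in ∆Bor het and 3 in ∆Bor hom against WT, and 5568 in Dup-C against Dup-L (2674). Fits within a range gave 3036 in Dup-L against WT (5719), 66 in Dup-L∆Bor, 55 in ∆Bor het and 26 in ∆Bor hom. In ∆Bor hom, no filter gave 114 and limma 42. Without WT 1 there were 1640 in Dup-C, 2490 in ∆Bor het and 2750 in ∆Bor hom.

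With GC and length offsets, the number of tendon genes past the threshold was 0 in Dup-L against WT, 0 in Dup-C against Dup-L and 2 in Dup-L∆Bor against Dup-L. The sign changed for Fmod in Dup-L against WT (0.11), Scx in Dup-C against Dup-L (-0.04), Mkx in ∆Bor het (-0.01) and Scx in ∆Bor hom (0.03). With Pitx1 as a covariate the 3 counts were all 0. The sign changed for Fmod (0.04) and Tnmd (0.27) in Dup-L∆Bor against Dup-L, Tnmd in Dup-L against WT (-0.03), Mkx (0.02) and Tnmd (0.24) in Dup-L∆Bor against WT, Tnmd in ∆Bor het (0.49), and Kera (0.05) and Mkx (0.07) in ∆Bor hom. With the offsets and Pitx1 together, chosen after seeing the data, the counts were again 0 in each of the 3. Dcn (-0.05), Mkx (-0.17) and Tnmd (-0.39) changed sign in Dup-L against WT, as did Mkx (0.21) and Tnmd (0.69) in Dup-L∆Bor against Dup-L, Mkx (0.04) and Tnmd (0.30) in Dup-L∆Bor against WT, Scx (0.10) and Tnmd (0.22) in ∆Bor het and Scx (0.23) in ∆Bor hom.

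With the library number range as a term, 2 genes passed in Dup-L∆Bor against Dup-L, and Mkx in ∆Bor hom (0.01), Scx in Dup-L∆Bor against WT (-0.11) and Tnmd in ∆Bor het (0.40) changed sign. Within the second range Scx in Dup-L∆Bor against WT was at -0.11, and within the first Tnmd in ∆Bor het at 0.39. With the offsets and the range together, also chosen after seeing the data, 0 genes passed in each comparison with Dup-L. The sign changed for Fmod in Dup-L against WT (0.10), Scx in Dup-C against Dup-L (-0.04), Scx in Dup-L∆Bor against Dup-L (-0.08) and against WT (-0.11), Scx (0.14) and Tnmd (0.21) in ∆Bor het and Scx in ∆Bor hom (0.26). limma without a filter called 1 gene in Dup-L against WT. The causes of these changes were not tested.

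Leaving out 1 library gave 0 to 3 genes past the threshold in Dup-L against WT, 2 to 5 in Dup-L∆Bor against Dup-L and 0 in each of the 4 cases in Dup-C against Dup-L. The sign of 5 fold changes was not stable, which ranged between -0.24 and 0.02 for Fmod in Dup-L against WT, -0.05 and 0.27 for Scx and -1.32 and 0.06 for Tnmd in Dup-L∆Bor against WT, and -0.95 and 0.02 for Scx and -0.65 and 0.20 for Tnmd in ∆Bor het.

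Replicate numbers did not pair the libraries (correlations of same-numbered deviations between -0.183 and 0.098). The block fit took fewer libraries and tested 16773 genes. With it, 1 tendon gene passed in Dup-L against WT (Kera, 9.44% of all genes), against 3 with the same libraries unpaired (Mkx, Kera and Dcn, 19% of all genes), and Tnmd in ∆Bor het was at 0.39. The same libraries without the block, chosen after seeing the data, gave Tnmd in ∆Bor het at 0.38.

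The progenitor-minus-matrix difference was recomputed only on another scale or pseudocount, or without a gene or a library. GC and length offsets, Pitx1 and the library number range were not applied to it. With the offsets, the separate log2 differences in Dup-L against WT were -0.27 for Scx, 0.04 for Mkx, 0.52 for Tnmd, 0.41 for Kera, 0.12 for Dcn and 0.11 for Fmod. The progenitor-minus-matrix difference kept its sign in each alternative run, except in ∆Bor het with Mkx alone on the progenitor side. With a pseudocount of 0.1 it was -0.90 in Dup-L, 0.31 in Dup-C and 0.34 in ∆Bor hom against WT and 1.21 in Dup-C against Dup-L. On log2 CPM these 4 were -0.91, 0.34, 0.36 and 1.26. With Scx alone on the progenitor side it was 0.06 in Dup-C, -1.4 in Dup-L, -0.56 in ∆Bor het and 0.10 in ∆Bor hom against WT, and 1.83 in Dup-L∆Bor and 1.46 in Dup-C against Dup-L. With Mkx alone these 6 were 0.23, -0.17, 0.04, 0.28, 0.33 and 0.40. Without Dcn it was -0.72 in Dup-L and -0.10 in ∆Bor het against WT and 0.84 in Dup-C against Dup-L. Without Fmod it was -1.01 in Dup-L and -0.39 in ∆Bor het against WT, 1.33 in Dup-L∆Bor and 1.19 in Dup-C against Dup-L. Without Kera it was 0.22 in Dup-C, -0.68 in Dup-L and 0.28 in ∆Bor hom against WT. Without Tnmd it was 0.05 in Dup-C, -0.73 in Dup-L and 0.09 in ∆Bor hom against WT and 0.78 in Dup-C against Dup-L.

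Tnmd had the fewest counts, with 16 to 203 per library against 629 or more for the other 5 genes. It also varied between libraries of 1 genotype, from 0.50 to 3.34 FPKM in WT. The single ∆Bor hom library and pairs of Dup-C, Dup-L and ∆Bor het libraries limit what can be called.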
